A study of Mus musculus with 6 samples.

Results

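Planar polarity is the signalling system by which neighbouring cells, or a growth cone and the cells it crosses, align along an axis of the tissue. The same proteins steer growing axons. Frizzled receptors sit in a membrane complex that opposes that of the Vangl and Prickle proteins, and Celsr cadherins are in both. Dishevelled carries the signal inside the cell. In mice, loss of Fzd3 or Celsr3 disrupts major forebrain axon tracts, and Wnt5a acts through its receptor Ryk as a repellent for callosal axons after they have crossed the midline.

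The 10 genes described here are Celsr1, Celsr2, Celsr3, Fzd3, Vangl2, Ryk, Wnt5a, Dvl1, Prickle1 and Prickle2. They were chosen by name, all 10 were found among the 24411 genes of the deposited tables, and their transcript values were summed per gene. RNA came from the corpus callosum of B6 mice on postnatal day 4, dissected by hand from frozen sections, with 3 libraries from a conditional knockout of Mettl14 (Mettl14 cKO) and 3 from WT mice. The titles of these libraries hold the word axon. Mettl14 is a subunit of the methyltransferase that places N6-methyladenosine (m6A) on mRNA. The labels name neither the Cre line of the knockout nor separate animals for the libraries, so p-values measure the spread between these libraries, which may be technical. The study addresses the role of m6A in the movement of neuronal mRNA into neurites.

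Depth was low, with 670462 to 1208382 expected counts in the cKO libraries and 843647 to 1268430 in the WT libraries. Mettl14 itself had 2, 7 and 2 counts in cKO, against 11, 8 and 5 in WT, a ratio of pooled counts of 0.56 with a 95% counting interval of 0.248 to 1.19, so a loss was not detectable at this depth. Both replicate 2 libraries stood apart, being the deepest of their groups and having mean fragments of 292.7 bases (cKO) and 304.3 bases (WT), against 345.5 and 350.5 in the other cKO and 332.4 and 338.8 in the other WT libraries. Xist was counted in the cKO libraries alone (2323 to 4618 counts) and the Y-linked Eif2s3y in the WT libraries alone (51 to 80 counts), so genotype and this difference cannot be told apart. The sums of many cell type markers differed as well. The 8 markers of excitatory cortical neurons summed to 5623 to 6465 CPM (counts scaled to the size of the library) in cKO and 243 to 755 in WT, where Neurod2 was at 0. Without Neurod2, Neurod6 and Bhlhe22, which have 1 or 2 exons, a class often at 0 or 1 count in these libraries, the other 5 summed to 852 to 1607 CPM in cKO and 196 to 602 in WT, a sum chosen after seeing the data. The 8 markers of neurons in general summed to 9911 to 13150 CPM in cKO and 7224 to 8882 in WT. Of the 8 excitatory markers 7 had positive log2 fold changes and 1, Slc17a7, a negative one (−0.6). Tbr1 and Mef2c had 15.6 and 12.7 CPM in cKO replicate 3, and their groups overlapped. Of the 8 general markers 6 had positive values and 2 negative ones, Snap25 (−0.31) and Syt1 (−1.08). The 8 astrocyte markers summed to 1187 to 1486 CPM in cKO, with Gpr37l1 at 0, and 5423 to 6182 in WT. Gpr37l1 and Gja1 have 2 exons and so belong to the class often at 0 or 1 count. Without them the other 6 summed to 1017 to 1486 CPM in cKO and 4858 to 5708 in WT, also chosen after seeing the data. The 8 oligodendrocyte markers summed to 2.83 to 10.8 CPM in cKO, with Mag, Mog, Myrf and Enpp6 at 0, and 1862 to 2890 in WT. The 8 markers of radial glia and progenitors summed to 2810 to 3289 CPM in cKO and 6523 to 8643 in WT. The 8 ependymal markers summed to 2.0 to 2.83 CPM in cKO and 5.62 to 13.97 in WT, with Foxj1 and Cfap43 at 0 throughout. Those of oligodendrocyte precursors summed to 14.15 to 974.8 CPM in cKO and 2586 to 3117 in WT. Olig1 in that list has 1 exon and was at 0 in cKO replicate 3. Markers of proliferating cells summed to 82.0 to 406 CPM in cKO and 766 to 823 in WT. The sums of microglia markers overlapped, at 117 to 339.5 CPM in cKO and 203 to 577.5 in WT, as did those of choroid plexus.

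Of the 10 genes, 6 passed the filter on low counts (Celsr1, Celsr2, Celsr3, Vangl2, Ryk and Dvl1). Of these 6, 0 were called as different between cKO and WT. The test was edgeR's quasi-likelihood test, with a Benjamini-Hochberg adjusted p below 0.05 over all 5918 genes tested, of which 0.912% were called (0.49% higher and 0.422% lower in cKO). At an unadjusted p below 0.05 the count was also 0 of 6, beside 12.6% of all genes, as it was for calls with DESeq2 (7.34% of all genes) and with limma-voom (0.71%). Without the filter 1 of the 10 genes, Prickle2, had an unadjusted p below 0.05 with edgeR, and 0 were called. In that fit 1236 of all 13302 genes had an unadjusted p below 0.05, and 22 were called. For 0 of the 6 did the cKO and WT ranges in CPM separate, against 19.8% of all genes tested (10.4% higher and 9.45% lower in cKO). Their median log2 fold change was 0.72, with 5 positive values and 1 negative, beside a median of 0.07 over all genes tested. Most marker sums given above differ between the groups. In these bulk samples fewer cells of a type and less RNA per cell cannot be told apart. The part of cell makeup in the values that follow was not tested.

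Because the knockout targets a subunit of an m6A writer, the sequence context that the writer prefers is shown for the 6 tested genes. The letters searched were GGACT, a frequent form of the m6A consensus, on the sense strand of the coding sequence, in GENCODE M21 transcripts of GRCm38 that are paired with the RefSeq accessions of the files. Each line gives the last copy that has 10 bases on either side within the same exon and the coding sequence. Any later copy without such a window was passed over. The capitals mark the motif.
Celsr1: ctggctgctgGGACTgctggcggtc
Celsr2: cggtggatgaGGACTcctctggctc
Celsr3: ctcggcccctGGACTctttatctag
Vangl2: tgaagcgccaGGACTtcagcttggt
Ryk: tgtttcctatGGACTaccactgcct
Dvl1: cggatgtggtGGACTggctgtacac

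These windows lie at chr15:85903980-85904004 (minus strand, exon 28 of 35) for Celsr1, chr3:108393014-108393038 (minus strand, exon 33 of 34) for Celsr2 and chr9:108849139-108849163 (plus strand, exon 34 of 35) for Celsr3. For Vangl2 the window is chr1:172004705-172004729 (minus strand, exon 8 of 8), for Ryk chr9:102898744-102898768 (plus strand, exon 13 of 15) and for Dvl1 chr4:155856365-155856389 (plus strand, exon 13 of 15). Of the copies shown, that of Celsr2 is the closest to its coding end, 38 bases away with the stop codon not counted. The Celsr1 copy shown is the farthest, at 1042 bases. The long Celsr coding sequences hold the most copies, 21 in Celsr3, 15 in Celsr1 and 11 in Celsr2. Per kilobase the 6 genes ranged from 0.56 in Ryk (1 copy) to 2.4 in Dvl1 (5 copies), with 0.64 in Vangl2 (1 copy), 1.26 in Celsr2, 1.65 in Celsr1 and 2.12 in Celsr3, beside a median of 1.04 over the 5863 tested genes with a matched coding sequence. The motif is common, being present in the coding sequence of 78.9% of those genes. The files hold no measurement of m6A, so a match describes letters in a sequence and not a modified base.

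Levels are compared between genes in TPM, a unit corrected for transcript length. In cKO the order of mean levels was Vangl2 (80.9 ± 55.6 TPM), Ryk (52.2 ± 32.0), Dvl1 (45.8 ± 28.9), Celsr2 (25.8 ± 11.8), Celsr3 (14.8 ± 14.3), Prickle2 (5.73 ± 9.4), Celsr1 (2.06 ± 1.04), Prickle1 (0.983 ± 0.739), Fzd3 (0.103 ± 0.0929) and Wnt5a (0 in each library). In WT it was Ryk (40.6 ± 24.0), Dvl1 (40.1 ± 33.8), Vangl2 (39.5 ± 23.4), Celsr2 (13.3 ± 8.13), Celsr3 (6.74 ± 7.02), Celsr1 (2.6 ± 1.08), Prickle1 (2.23 ± 0.323), Wnt5a (0.267 ± 0.239), Prickle2 (0.123 ± 0.214) and Fzd3 (0.08 ± 0.0693), all SD with n = 3. Neighbours in either order overlapped in their ranges over libraries, except that Prickle1 stood apart from the next gene below it, Fzd3 in cKO and Wnt5a in WT. These steps rest on few counts. In cKO they were 2, 1 and 3 for Prickle1 and 1, 0 and 1 for Fzd3, on transcripts of 4085 and 12742 bases. In WT they were 6, 6 and 6 for Prickle1 and 1, 1 and 0 for Wnt5a. The median of all tested genes was 27.8 TPM in cKO and 27.0 in WT. Ryk, Dvl1 and Vangl2 stood above it on average in both groups and the Celsr genes below it. Single libraries went the other way. Dvl1 had 16.4 TPM in cKO replicate 1 and 22.1 and 19.1 in WT replicates 1 and 3. In WT replicate 3 Ryk had 26.1 TPM and Vangl2 17.6. Celsr2 had 38.4 TPM in cKO replicate 3 and Celsr3 30.8 in cKO replicate 2. The files model Vangl2 by a transcript of 2260 bases, while its GENCODE transcript has 5698, so reads from the remaining part are not in its count. The effect on its level was not tested.

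**Figure D1:**
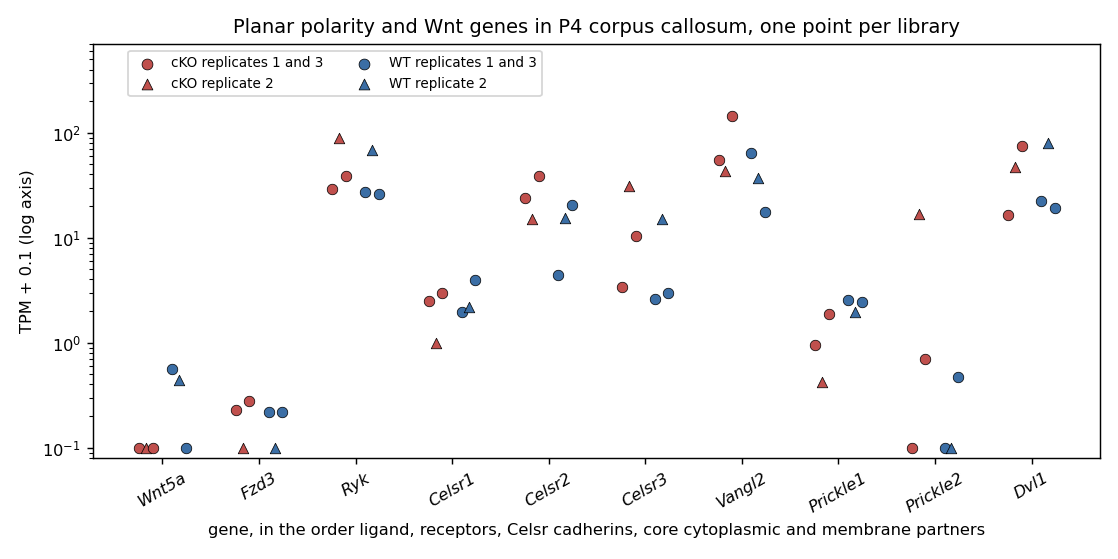
Level of each of the 10 genes in every library, in TPM plus 0.1 on a log axis, with cKO points (red) left of WT points (blue) and the replicate 2 libraries as triangles. Ryk, Dvl1 and Vangl2 have the highest group means, Fzd3 and Wnt5a at or near 0 in all libraries, and the Prickle2 point at 16.6 TPM belongs to cKO replicate 2 alone.

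The ligand Wnt5a, a secreted protein that signals mostly through the non-canonical branch, was hardly counted. It had 0, 0 and 0 counts in cKO and 1, 1 and 0 in WT. Its modelled transcripts have 4354 and 3731 bases, while its GENCODE transcript has 7010. Reads from the remaining part are therefore not in its count, and the effect on its level was not tested. A count of 0 allows up to 3 counts, which is 3.0 to 4.24 CPM in the cKO libraries and 2.41 to 3.49 CPM in the WT libraries, so no difference was detectable. Of the 19 Wnt ligand genes 14 had 0 counts in all 6 libraries and 0 passed the filter. The remaining 5 include Wnt5a, and Wnt7a, a ligand of the beta-catenin branch in forebrain vessels, had 66 counts in cKO replicate 2, 1 in WT replicate 1 and 0 in the other libraries. Wnt7a was singled out after its values were seen.

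The receptors split into one that was counted in every library and one near 0. Ryk, a Wnt receptor with an inactive kinase domain (chromosome 9, 102834920 to 102908307, GRCm38), had 28.9, 88.6 and 39.0 TPM in cKO replicates 1 to 3 and 27.4, 68.3 and 26.1 TPM in the WT replicates. The high values were those of both replicate 2 libraries and the groups overlapped. Its log2 fold change was 0.49 (SE 0.68, 95% interval −1.12 to 2.09, edgeR adjusted p = 0.859), and −0.26 without cKO replicate 2, a change of direction. Fzd3 (chromosome 14, 65192441 to 65262463), the Frizzled receptor of axon tracts, had 1, 0 and 1 counts in cKO and 1, 0 and 1 in WT. At 2 counts per group no difference was detectable, although its transcript of 12742 bases is the longest among those of the 10 genes. The replicate 2 library was at 0 in both groups.

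The Celsr genes encode large adhesion receptors with cadherin repeats. In the mouse cortex Celsr1 is mainly found in progenitors, Celsr3 in neurons that have left the cycle, and Celsr2 in both and in ependyma. Celsr1 (chromosome 15, 85898758 to 86034223) had 2.38, 0.9 and 2.9 TPM in cKO, on 16, 8 and 14 counts, and 1.88, 2.08 and 3.84 TPM in WT, on 13, 19 and 28 counts. The ranges overlapped, with cKO replicate 2 the lowest and WT replicate 3 the highest. The log2 fold change was −0.35 (SE 0.53, 95% interval −1.61 to 0.92, edgeR adjusted p = 0.883), and 0.12 without WT replicate 3.

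Celsr2 (chromosome 3, 108390848 to 108416069) had 23.9, 15.1 and 38.4 TPM in cKO and 4.3, 15.3 and 20.2 TPM in WT. WT replicate 1, at 28 counts, stood below the other 5 libraries, which had 127 to 176 counts. The log2 fold change was 0.95 (SE 0.67, 95% interval −0.65 to 2.55, edgeR adjusted p = 0.653), and 0.52 without WT replicate 1.

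Celsr3 (chromosome 9, 108826023 to 108852969) had 3.26, 30.8 and 10.3 TPM in cKO and 2.48, 14.8 and 2.89 TPM in WT. Each group was highest in its replicate 2 library, with 285 counts in cKO and 142 in WT, against 23 and 52 in the other cKO and 18 and 22 in the other WT libraries. The log2 fold change was 1.28, with the widest interval of the 6 genes, −1.19 to 3.75 (SE 1.04, edgeR adjusted p = 0.696). It was −0.04 without cKO replicate 2 and 2.5 without WT replicate 2. With a term for the replicate 2 libraries it was 1.23, with an unadjusted p of 0.0429 and an edgeR adjusted p of 0.31. In that fit 890 of all 5918 genes had an unadjusted p below 0.05, and of the 6 genes 1 did.

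**Figure D2:**
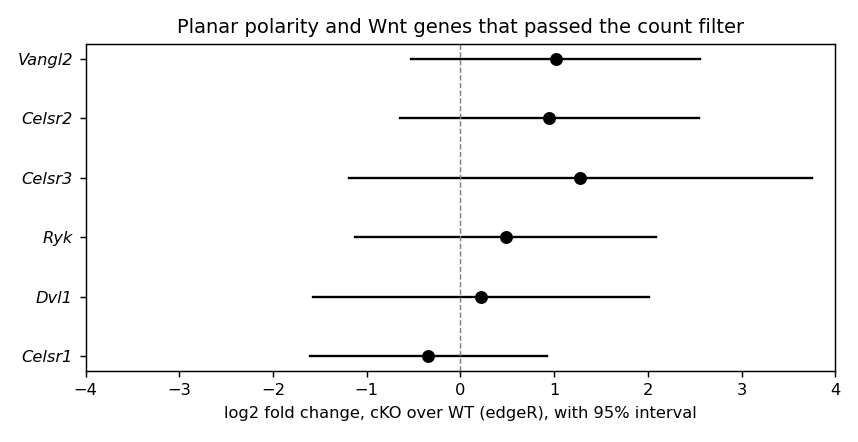
Log2 fold change of cKO over WT for the 6 genes that passed the count filter, as points with 95% intervals from the edgeR fit. All 6 intervals include 0, from −1.61 to 0.92 for Celsr1 to −1.19 to 3.75 for Celsr3.

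Set within the replicate 2 pair and within the other 4 libraries, the CPM of Celsr2, Celsr3 and Ryk was higher in every cKO library than in every WT library in both comparisons, as it was for 17.8% of all tested genes. Celsr3 had 285 CPM in cKO replicate 2 and 114 in WT replicate 2, and 30.9 and 73.6 in the other cKO against 20.2 and 25.6 in the other WT libraries. Ryk had 217 CPM against 138 in the replicate 2 pair, and 71.3 and 72.1 against 58.4 and 60.5 in the others, cKO before WT. Libraries of Vangl2, Dvl1 and Celsr1 did not separate in this way in both. By means, Vangl2 was higher in cKO in both, at 70.1 CPM against 49.0 in the replicate 2 pair and 133 against 58.3 in the others, and Celsr1 was lower in both, at 8.01 against 15.3 and 20.7 against 23.6. Dvl1 was lower in cKO in the replicate 2 pair (120 against 168 CPM) and higher in the others (93.0 against 46.9). Celsr3 and Ryk had their highest value in replicate 2 in both groups, as did 22.0% of tested genes. For Celsr3 replicate 2 exceeded the mean of the other libraries by 2.43 in cKO and 2.27 in WT on a log2(CPM + 1) scale, and for Ryk by 1.59 and 1.2, beside medians of 0 and −0.1 over all tested genes.

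The share of each Celsr gene in their summed TPM moved with the library. Celsr2 took 80.9%, 32.2% and 74.4% in cKO replicates 1 to 3, against 49.65%, 47.5% and 75.0% in WT. Celsr3 took 11.02%, 65.9% and 19.95% in cKO and 28.6%, 46.1% and 10.7% in WT, so that in cKO replicate 2 it was the leading Celsr transcript. Celsr1 took 1.93% to 8.05% in cKO and 6.46% to 21.7% in WT, where the ranges overlapped. The summed level was 29.6, 46.7 and 51.5 TPM in cKO and 8.66, 32.2 and 26.9 TPM in WT.

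**Figure D3:**
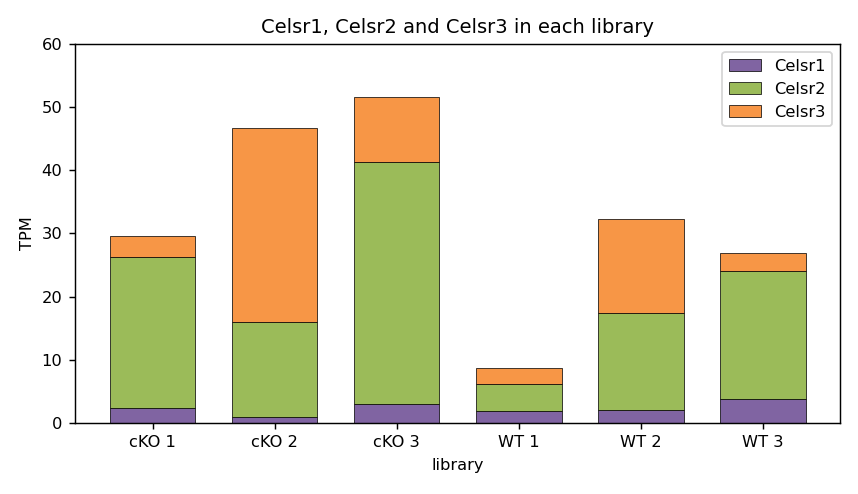
TPM of Celsr1, Celsr2 and Celsr3 stacked for each library, cKO libraries left of WT libraries. The summed level runs from 8.66 TPM in WT replicate 1 to 51.5 TPM in cKO replicate 3, and Celsr3 fills 65.9% of it in cKO replicate 2 and 46.1% in WT replicate 2.

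Vangl2 and the Prickle proteins form membrane and cytoplasmic parts of the complex that opposes that of Frizzled. Vangl2 (chromosome 1, 172000960 to 172027318) had 54.8, 43.2 and 145 TPM in cKO, on 66, 70 and 125 counts, and 64.2, 36.6 and 17.6 TPM in WT, on 80, 61 and 23 counts. The highest library was cKO replicate 3 and the lowest WT replicate 3, and the remaining 4 overlapped between the groups. Its log2 fold change of 1.02 (SE 0.65, 95% interval −0.53 to 2.56, edgeR adjusted p = 0.602) had the smallest unadjusted p of the 6 genes, 0.164, and was 0.54 without cKO replicate 3.

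Prickle1 (chromosome 15, 93499111 to 93596266), below the filter, had 2, 1 and 3 counts in cKO and 6, 6 and 6 in WT. The groups did not overlap, which in CPM also held for 19.8% of the genes that did pass the filter. The ratio of pooled counts was 0.407 with a 95% counting interval of 0.132 to 1.07. Exact permutation of the libraries' CPM (two-sided) gave p = 0.1, the smallest that 3 libraries against 3 allow. In a fit without the filter its log2 fold change was −1.22 with an edgeR adjusted p of 0.576. Prickle2 (chromosome 6, 92370891 to 92706334) had 0, 101 and 2 counts in cKO and 0, 0 and 2 in WT. A single library, cKO replicate 2, held 101 of the 103 cKO counts. The ratio of pooled counts was 62.95 (95% counting interval 17.0 to 527), but without that library 2 counts stood against 2, an alternative chosen after seeing the data. In the fit without the filter its log2 fold change was 5.34, with an unadjusted p of 0.0409 and an edgeR adjusted p of 0.524. Exact permutation (two-sided) gave p = 0.4.

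Dvl1 (chromosome 4, 155847402 to 155859303), a Dishevelled scaffold that receives the signal from Frizzled receptors, had 16.4, 46.9 and 74.1 TPM in cKO and 22.1, 79.1 and 19.1 TPM in WT. The groups overlapped over nearly their whole range, and WT replicate 2, with 209 counts, was the highest library. The log2 fold change was 0.22 (SE 0.75, 95% interval −1.57 to 2.01, edgeR adjusted p = 0.96). It was −0.09 without cKO replicate 3, −0.07 without WT replicate 1 and −0.09 without WT replicate 3. Its paralogs had lower counts, 6, 7 and 17 for Dvl2 and 15, 18 and 45 for Dvl3 in cKO, against 12, 7 and 20 and 38, 34 and 35 in WT, with log2 fold changes of −0.11 (SE 0.69) and −0.12 (SE 0.6). Tas1r3, which overlaps Dvl1 on the opposite strand, had 0 counts in all 6 libraries.

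RSEM divides reads among the transcripts of a gene by estimate, and for several of these genes the division changed between libraries of one group. For Ryk the 3267-base transcript took 32.5%, all and 80.3% of the gene's TPM in cKO replicates 1 to 3 and 49.4%, 60.2% and 65.8% in WT. The 3258-base transcript took the rest, except in cKO replicate 3, where a 3136-base transcript took 19.7%. For Celsr2 the 10543-base transcript took 77.2%, all and 70.9% in cKO and 0%, 34.1% and all in WT. For Dvl1 the 3443-base transcript took 0%, 59.1% and 51.5% in cKO and 0%, 66.8% and 0% in WT, so it was counted in 3 of 6 libraries, both replicate 2 libraries among them. For Prickle2, with 4 transcripts in the files, all 101 counts of cKO replicate 2 fell on the 7695-base transcript. No transcript shift was tested, and within both groups the shares of Celsr2, Ryk and Dvl1 differed between libraries by more than 15 percentage points.

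**Figure D4:**
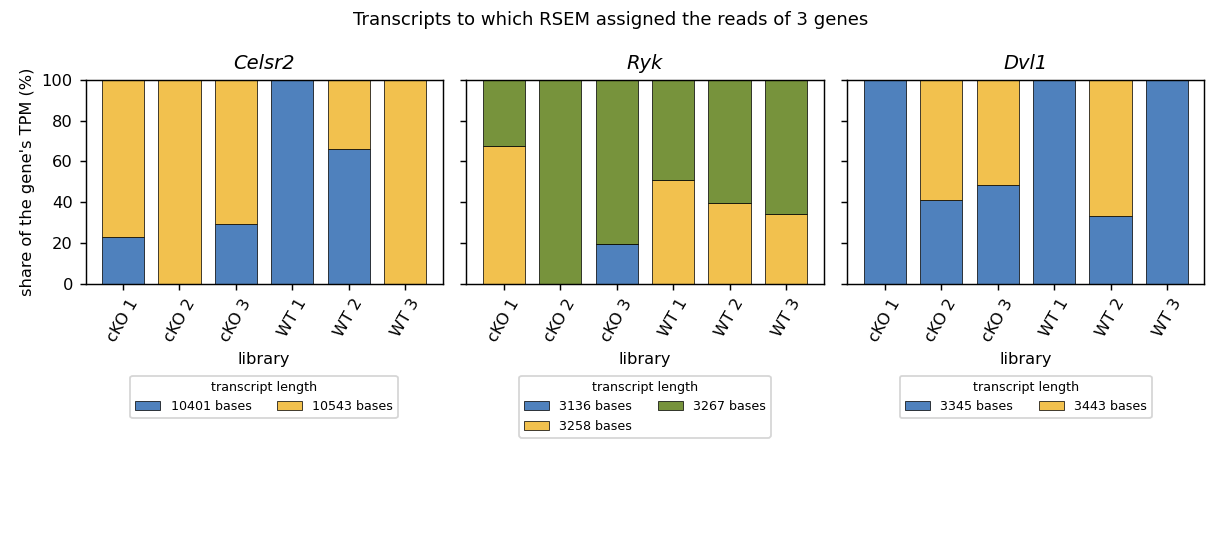
Share of each transcript, named by its length, in the TPM of Celsr2, Ryk and Dvl1, in percent, for each library with cKO left of WT. In 1 or more libraries of each gene a single transcript fills the whole bar, as in cKO replicate 2 for Celsr2 and Ryk, while another library of the same group is mixed or filled by the other transcript.

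By the smallest root mean square difference of log2(CPM + 1), centred on each gene's mean over the 6 libraries, 3 genes were most like Celsr2, the gene of the 10 with the highest mean CPM. They were Ank2, an ankyrin of axonal membranes (difference 0.181), Inpp5f, a phosphoinositide phosphatase (0.297), and Phc2, a Polycomb protein (0.3), beside a median of 1.19 over 5917 genes. Ank2 had 635, 485 and 798 CPM in cKO and 139, 388 and 503 CPM in WT, with WT replicate 1 the lowest as for Celsr2.

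Among the other genes of the pathway, 146 were listed, 145 were found in the files and 65 passed the filter. With edgeR 0 of the 65 were called, beside 0.912% of all genes. At an unadjusted p below 0.05 there were 12, beside 12.6% of all genes. Limma-voom called 0, beside 0.71%, and DESeq2 called 6 (Csnk1e, Dkk3, Draxin, Itpr1, Porcn and Tle1), beside 7.34% of all genes. These shares over all genes apply to each list that follows. The median log2 fold change was 0.07, equal to that of all tested genes, and 16.9% had groups that did not overlap, beside 19.8%.

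Of 14 tested core planar polarity genes, 6 had positive and 8 negative values (median −0.11), and 0 passed with edgeR, DESeq2 or limma-voom, 1 at an unadjusted p below 0.05. That gene was Daam1, a formin that links Dishevelled to actin, with 54, 64 and 64 counts in cKO and 40, 34 and 23 in WT (log2 fold change 1.2, SE 0.46, edgeR adjusted p = 0.354). Ankrd6, the mouse relative of fly Diego, had 25, 110 and 171 counts in cKO and 36, 28 and 41 in WT (1.8, SE 0.79, edgeR adjusted p = 0.423). Dchs1, a giant cadherin of the Fat and Dachsous system, had 456, 13 and 614 counts in cKO and 16, 142 and 49 in WT (2.98, SE 1.34, edgeR adjusted p = 0.434). Both Ankrd6 and Dchs1 spread more than 6-fold within cKO. Gipc1, a PDZ protein that binds Vangl2 and the list's most abundant gene, had 75, 84 and 12 counts in cKO and 21, 256 and 99 in WT (−0.77, SE 0.94).

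Of 17 listed receptors and co-receptors, 5 passed the filter, Ryk among them, 3 with positive and 2 with negative values (median 0.49), and 0 were called by edgeR, DESeq2 or limma-voom, 1 at an unadjusted p below 0.05. Fzd7 had 28, 56 and 36 counts in cKO and 0, 19 and 0 in WT (log2 fold change 3.11, SE 1.25, edgeR adjusted p = 0.38). Fzd7 has 1 exon. Of the 251 genes with 1 or 2 exons and at least 50 CPM in some library, 35.1%, 10.8% and 55.4% were at 0 or 1 count in cKO replicates 1 to 3 and 63.0%, 24.7% and 59.8% in the WT replicates, against at most 6.56% of genes with 4 or more exons in any library. The part of this loss in the Fzd7 values was not tested. Lrp6, the co-receptor of the beta-catenin branch, had 114 of its 125 cKO counts in replicate 2, with 10, 2 and 4 counts in WT (2.92, SE 1.34). Ptk7 had 10, 13 and 11 counts in cKO and 17, 18 and 23 in WT (−0.51, SE 0.36).

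Of 5 tested genes for Wnt secretion and extracellular modulation, 2 had positive and 3 negative values (median −1.99), and 3 of the 5 (Dkk3, Porcn and Adgra2) had groups that did not overlap, beside 19.8% of all tested genes. With edgeR 0 were called, with limma-voom 0, at an unadjusted p below 0.05 there were 3 (Dkk3, Porcn and Draxin), and DESeq2 called these 3, beside 12.6% and 7.34% of all genes. Dkk3, a secreted member of the Dickkopf family, had 7, 6 and 10 counts in cKO and 19, 222 and 154 in WT, groups that did not overlap (log2 fold change −3.67, SE 0.92, edgeR adjusted p = 0.19, DESeq2 adjusted p = 0.000792). Draxin, a repellent that mouse forebrain commissures require and that inhibits Wnt signalling, had 7, 1 and 10 counts in cKO and 11, 243 and 117 in WT (−3.81, SE 1.24, edgeR adjusted p = 0.267, DESeq2 adjusted p = 0.0106). In both genes WT replicate 1 was far below the other WT libraries, and for Draxin its CPM lay within the cKO range. Porcn, the enzyme that attaches the lipid Wnt proteins need for secretion, had 52, 42 and 49 counts in cKO and 11, 21 and 24 in WT (1.66, SE 0.49, edgeR adjusted p = 0.241, DESeq2 adjusted p = 0.0184).

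Of 19 tested genes of the beta-catenin branch, Dvl1 among them, 12 had positive and 7 negative values (median 0.35). With edgeR 0 were called, with limma-voom 0 and with DESeq2 2 (Csnk1e and Tle1), while 4 had an unadjusted p below 0.05 (these 2, Csnk1a1 and Btrc), beside 7.34% and 12.6% of all genes. Csnk1e, a casein kinase that phosphorylates Dishevelled, had 494, 409 and 44 counts in cKO and 63, 60 and 63 in WT (log2 fold change 2.56, SE 0.83, edgeR adjusted p = 0.267). Tle1, a co-repressor of TCF factors, had 65, 147 and 85 counts in cKO and 48, 60 and 48 in WT (1.17, SE 0.46, edgeR adjusted p = 0.367), and Csnk1a1 stood at 1.33 (SE 0.55). Ctnnb1, beta-catenin itself, was the most abundant at 938 TPM in cKO and 1037 TPM in WT, with a log2 fold change of −0.11 (SE 0.17). Of 15 listed Wnt target genes 2 passed the filter, Nkd1 at −0.69 (SE 0.6) and Tnfrsf19 at −0.31 (SE 0.48), and 0 were called by edgeR, DESeq2 or limma-voom or had an unadjusted p below 0.05.

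Of 26 tested effectors of the non-canonical branch, 15 had positive and 11 negative values (median 0.07). With edgeR 0 were called, with limma-voom 0 and with DESeq2 1 (Itpr1), while 4 had an unadjusted p below 0.05 (Itpr1, Prkca, Camk2b and Daam1), beside 7.34% and 12.6% of all genes. Itpr1, the calcium release channel downstream of Wnt and calcium signalling, had 49, 197 and 44 counts in cKO and 15, 14 and 4 in WT, groups that did not overlap (log2 fold change 3.3, SE 0.76, edgeR adjusted p = 0.169, DESeq2 adjusted p = 0.000176). Prkca, a calcium-dependent protein kinase C, had 17, 15 and 10 counts in cKO and 6, 12 and 5 in WT (1.19, SE 0.38, edgeR adjusted p = 0.266). Cdc42, a small GTPase of the cytoskeleton and the list's most abundant gene, stood at −0.27 (SE 0.31).

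**Figure D5:**
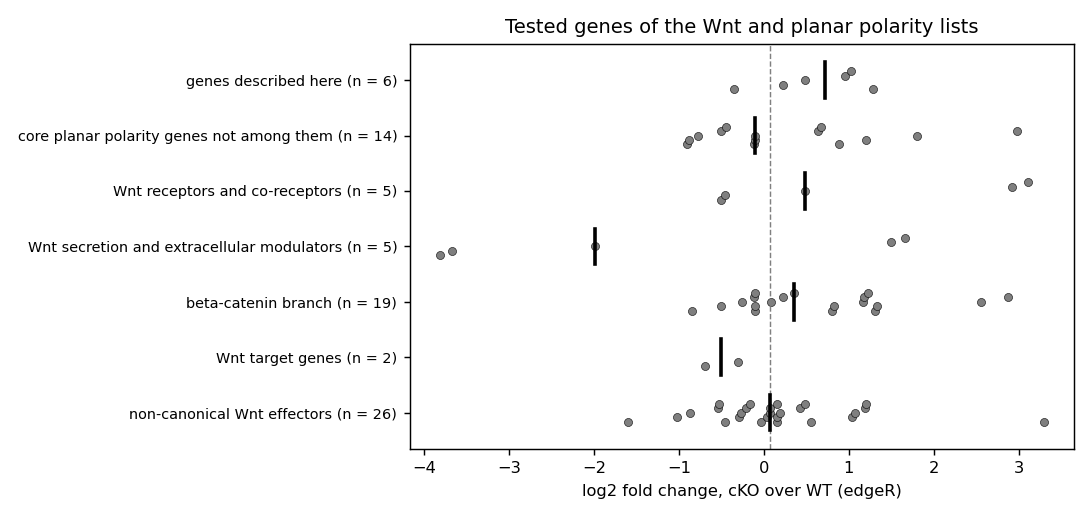
Log2 fold change of cKO over WT for each tested gene of the 7 lists with tested genes, as points, with a bar at each list's median and a dashed line at the median of all tested genes, 0.07. List medians run from −1.99 for secretion and extracellular modulators (5 genes) to 0.72 for the genes described here (6 genes), and single genes spread from −3.81 (Draxin) to 3.3 (Itpr1).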

How the data were processed

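RNA-seq of polyadenylated RNA was analysed in 3 Mettl14 cKO and 3 WT libraries, grouped by their titles. Per the submitters' processing notes, reads were handled with STAR 2.7.10b and RSEM 1.3.3 on mm10. Annotation release, filters and strand setting: not given in the sources used here. The library kit was NEBNext Ultra RNA, per the labels' protocols. The deposited tables list expected counts, RSEM's estimated counts for each transcript, per the file headers. The deposited TPM values are, per the file headers, scaled to transcript length and library total. Transcript lengths and effective lengths, per the file headers, gave fragment lengths.

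Transcripts of one gene were added up and the sums rounded. Genes were tested in R 4.3.3 by the quasi-likelihood test of edgeR 4.0.16, after TMM scaling and filterByExpr with a minimum count of 10, with no covariate. CPM uses the same scaling, where 1 count is 0.803 to 1.41 CPM. The standard error (SE) was derived from the fold change and its F statistic, so it restates the p-value, and 95% intervals use it with the fit's degrees of freedom. The test was tried on simulated data. DESeq2 1.42.0 and limma 3.58.1 were alternatives, as were other scalings, filters, the replicate block and leaving out libraries. Counting intervals (exact) and floors of 3 counts cover counting error only, and the labels name no molecular identifiers. Positions are from RefSeq's table of GRCm38, the assembly of mm10, matched by accession for 24157 of 24411 genes, and exon numbers from GENCODE M21 for 23880.

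The 10 genes, the lists and the tests were chosen with earlier results of these data known. Named pathway genes are, per list, those called, the 3 of smallest p and the gene of highest mean TPM; Dvl2, Dvl3, Wnt7a, and genes listed only as past a threshold, were added after their values were seen.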

Additional observations from a re-analysis of the deposited data

How the results depend on the processing

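No alternative called any of the 6 tested genes. Over 19 alternatives for each of them, 114 values in all, 0 had an adjusted p below 0.05 and 6 had the opposite sign to the reported one, each with 1 library left out. Leaving out 1 library at a time gave log2 fold changes of −0.61 to 0.12 for Celsr1, 0.52 to 1.49 for Celsr2, −0.04 to 2.5 for Celsr3, 0.54 to 1.55 for Vangl2, −0.26 to 1.02 for Ryk and −0.09 to 1.11 for Dvl1, where −0.07 was also negative. The median over all genes was −0.22 with upper-quartile scaling, against 0.069 with TMM. The 54 calls over all genes became 22 without a filter, 22 with 1 CPM in 3 libraries, 19 with a term for the replicate 2 libraries, 429 with DESeq2, 0 without both replicate 2 libraries (edgeR; 740 had an unadjusted p below 0.05) and 0 to 42 with 1 library left out. The 0 came without cKO replicate 1 (edgeR; 591 at an unadjusted p below 0.05) or WT replicate 3 (573), and the count was 10 without cKO replicate 2, 42 without cKO replicate 3, 1 without WT replicate 1 and 21 without WT replicate 2. DESeq2 called 6 other pathway genes, against 0 with edgeR. The cause was not tested.

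With the replicate number as a block 1 gene was called over all genes and 0 of the 6. Deviations of libraries with the same number correlated with r = 0.05, 0.456 and 0.155 for replicates 1 to 3 across genes. In cKO, replicate 3 correlated more with WT replicate 1 (0.203) than with WT replicate 3. With 3 libraries in each group these values cannot show whether the numbers pair the samples, and the labels do not say what the numbers mark. Fzd3, Wnt5a, Prickle1 and Prickle2 had at most 6 counts in all libraries but cKO replicate 2, with its 101 Prickle2 counts, so differences in them were poorly resolved. Without that library, left out after seeing the data, 2 Prickle2 counts were left in cKO.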
